A study of Rattus norvegicus with 31 samples.

Results

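Expression of 50 glutathione, peroxidase and redox genes was described in the left ventricle of the rat heart. The genes were taken by symbol from the table of 19100 RefSeq genes. They were the cytosolic and mitochondrial glutathione transferases (Gst), the microsomal ones (Mgst1 to Mgst3), the glutathione peroxidases (Gpx), the peroxiredoxins (Prdx), the thioredoxins and their reductases, the enzymes of glutathione synthesis and reduction, Nqo1 and Nqo2, the superoxide dismutases, Cat, Hmox1, Hmox2 and Srxn1. The rule uses the symbol alone. Of the 50 genes, 47 had a counterpart among the 46063 genes that were assembled from the reads, and 3 (Gsta6, Gstm1 and Gstm4) had none. In 43 of the 47 the assembled gene carried that symbol alone. In the other 4 it also covered neighbouring genes: Gpx1 was assembled with Rhoa, Gsto1 with Gsto2, Gstt2 with Mif and Smarcb1, and Gstt3 with Cabin1 and Ddt, so their values are those of the merged gene.

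The study measured total RNA depleted of ribosomal RNA in untreated male rats of the HXB/BXH recombinant inbred panel and of its progenitors. SHR (SHR/OlaIpcv), the spontaneously hypertensive rat, was represented by 4 libraries and BN-Lx (BN-Lx/Cub), a normotensive Brown Norway congenic strain, by 4, all of sequencing batch 1. The HXB family was represented by 12 strains and the BXH family by 9, with 1 library per strain, of which 3 HXB and 3 BXH strains were in batch 2 and 9 HXB and 6 BXH strains in batch 3. Each recombinant inbred strain is homozygous for a mosaic of both progenitor genomes, and the families come from reciprocal crosses. All groups were therefore inbred, untreated and male, and the age of the animals was not given in the sources used here. A strain with 1 library has no replicate of its own, so the strain is the unit of replication in every statement on the families. Progenitors were compared in the table of assembled genes, which holds the BN-Lx libraries, and families in the RefSeq table.

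Glutathione is a small thiol made from glutamate, cysteine and glycine, with glutamate-cysteine ligase (Gclc, the catalytic subunit, and Gclm, the modifier subunit) as the rate-limiting step. Glutathione peroxidases spend it to reduce hydrogen peroxide and lipid peroxides, glutathione transferases couple it to electrophiles, and glutathione reductase (Gsr) restores it with NADPH. The thioredoxin system runs beside it, with peroxiredoxins as the peroxide-reducing enzymes, thioredoxins as their electron donors and the selenoprotein thioredoxin reductases as the step that draws on NADPH. In the heart, whose cardiomyocytes are dense with mitochondria, the mitochondrial members (Prdx3, Prdx5, Txn2, Txnrd2, Sod2, and a form of Gpx4) work next to the respiratory chain. Several members, among them Nqo1, Hmox1, Gclm, Txnrd1 and Srxn1, are known targets of the transcription factor NRF2 (Nfe2l2).

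The deposited values were on a log2 scale whose transformation is not stated, and read counts were not used here, so no depth can be stated for a value and no interval for counting error was computed. All differences are therefore differences in log2 level. A difference was called at an adjusted p under 0.05 (limma, two-sided, Benjamini-Hochberg over all genes of the table). Defining cardiomyocyte genes were measured in every library, with a mean level (log2 of the mean of the linear values) of 17.47 to 17.68 in SHR and 17.56 to 17.82 in BN-Lx over 7 markers, and of 18.22 to 18.71 in HXB and 18.44 to 18.85 in BXH over 9. The added spike-in RNAs differed with the groups: their mean log2 level was 6.37 to 6.82 in SHR, against 6.95 to 7.85 in BN-Lx, and 6.63 to 7.01 in HXB, against 6.78 to 7.93 in BXH. In left ventricle tissue, fewer cells of a type and less RNA per cell cannot be told apart. Within the alpha class (Gsta) and within the mu class (Gstm) some transferases are near-identical copies. Reads could be divided among such copies by the counting, and their single values are uncertain to that extent.

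Between SHR and BN-Lx, 16 of the 47 measured members were lower in SHR and 3 were higher. Over all assembled genes, 14.3% were called, 6.95% lower and 7.38% higher, and over the 12911 assembled genes that carry a name alone, 9.42% were lower and 11.1% higher in SHR. The median difference of the members was −0.24, against 0.01 for all genes. The members lower in SHR included both peroxidases with called differences (Gpx1 and Gpx4), 4 of the 6 peroxiredoxins, the thioredoxins Txn1 and Txn2, Sod1, Nqo1 and 5 glutathione transferases. The 3 higher members were Hmox1, Gclm and Txnrd1. The values of SHR and BN-Lx did not overlap in 19 of the 47 members, of which 17 were called, while 20.6% of all assembled genes did not overlap.

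**Figure D1:**
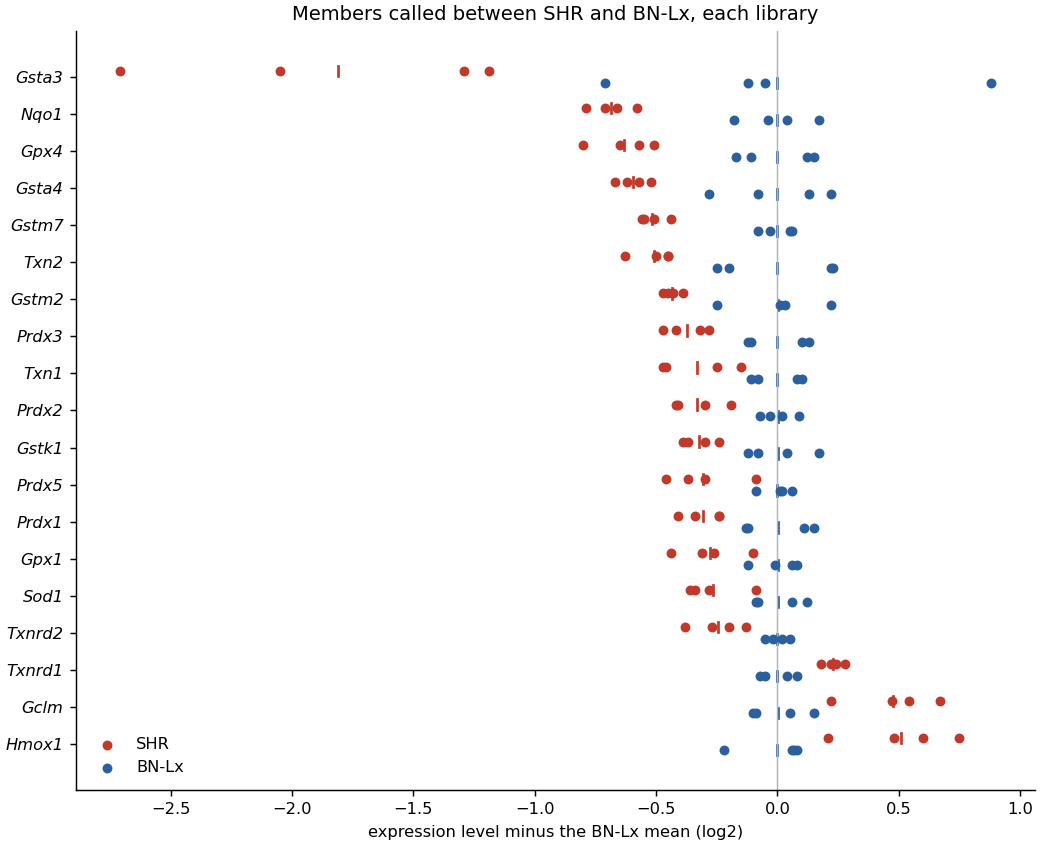
Level of the 19 called members in each library as the difference from the BN-Lx mean (log2, horizontal axis), with 1 point per library, SHR in red and BN-Lx in blue, and a vertical tick at each group mean. The SHR points lie to the left of zero in 16 members and to the right in Txnrd1, Gclm and Hmox1, and the spread of Gsta3 exceeds that of the other members.

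Among the glutathione peroxidases, Gpx4, the selenoenzyme that reduces phospholipid hydroperoxides within membranes (chr7:9650186-9652982, minus strand, rn7), had the smallest adjusted p of all members. Its log2 levels were 12.75, 12.69, 12.46 and 12.61 in SHR, against 13.41, 13.09, 13.38 and 13.15 in BN-Lx. Every SHR library lay below every BN-Lx library, and the difference was −0.63 (SE 0.09, adjusted p = 0.00054, limma). Gpx1, the cytosolic and mitochondrial enzyme that reduces hydrogen peroxide, was at 14.59, 14.38, 14.25 and 14.43 in SHR, against 14.77, 14.68, 14.75 and 14.57 in BN-Lx. SHR replicate 1 reached into the BN-Lx range, and the difference was −0.28 (SE 0.08, adjusted p = 0.0321). That assembled gene also holds Rhoa. The remaining peroxidases were not called: the secreted Gpx3 differed by 0.28 (adjusted p = 0.308), Gpx7 of the endoplasmic reticulum by 0.28 (adjusted p = 0.197) and Gpx8, also of the endoplasmic reticulum, by 0.18 (adjusted p = 0.349). The 2 called members were thus both lower in SHR, whereas the uncalled ones had positive estimates, and the median over the class was 0.18.

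The enzymes that make and restore glutathione showed 1 call among 4. Gclm was at 7.93, 7.80, 7.48 and 7.73 in SHR, against 7.41, 7.17, 7.31 and 7.16 in BN-Lx, a difference of 0.47 (SE 0.13, adjusted p = 0.0269). All SHR values were above all BN-Lx values. The assembled gene behind this value has 2 exons (chr2:210331483-210370210) and followed the RefSeq Gclm gene across the 21 recombinant inbred strains with a Spearman rho of 0.30. A second assembled gene carries the symbol together with neighbouring genes, and when that gene was used the call was lost. Gclc, the catalytic subunit, was at 9.27, 9.10, 8.97 and 9.03 in SHR, against 8.94, 9.03, 9.04 and 9.16 in BN-Lx, with overlapping groups and a difference of 0.05 (SE 0.10, adjusted p = 0.774). Neither Gss, glutathione synthetase (−0.21, adjusted p = 0.13), nor Gsr (−0.17, adjusted p = 0.294) was called, although the values of Gss did not overlap between the groups.

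Among the 15 transferases with an assembled gene, 5 were lower in SHR and 0 higher. Gstm2, a mu class enzyme known in humans as the muscle form (chr2:195624006-195685318), was at 12.39, 12.35, 12.31 and 12.33 in SHR, against 13.00, 12.53, 12.79 and 12.81 in BN-Lx. The SHR libraries lay within a narrow band below all BN-Lx libraries, with a difference of −0.44 (SE 0.09, adjusted p = 0.00553). This assembled gene has 27 different exons over its transcripts, while those of Gstm5 and Gstm7 have 8, and 4 assembled genes carry the symbol. It followed the RefSeq Gstm2 gene across the 21 recombinant inbred strains with a Spearman rho of 0.96. Whether it also holds reads of Gstm1 or Gstm4, which have no assembled gene, was not tested. The neighbouring Gstm7 (chr2:195566701-195572149) was at 9.29, 9.25, 9.36 and 9.24 in SHR, against 9.86, 9.77, 9.72 and 9.85 in BN-Lx, a difference of −0.51 (SE 0.08, adjusted p = 0.000954). Gsta4, the alpha class enzyme with high activity toward 4-hydroxynonenal (chr8:79066967-79084193), was at 9.38, 9.43, 9.33 and 9.28 in SHR, against 10.08, 9.67, 10.17 and 9.87 in BN-Lx. No SHR value reached the BN-Lx values, and the difference was −0.59 (SE 0.11, adjusted p = 0.00288). Gstk1, the kappa class enzyme of mitochondria and peroxisomes, was at 10.02, 9.96, 9.87 and 9.89 in SHR, against 10.30, 10.14, 10.18 and 10.43 in BN-Lx, a difference of −0.33 (SE 0.09, adjusted p = 0.0241).

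Gsta3 gave the difference of greatest size among the members and the one with the largest SE among those called. Its log2 levels were 1.75, 0.33, 1.85 and 0.99 in SHR, against 2.92, 2.33, 2.99 and 3.92 in BN-Lx, all low on the scale of the table. The groups did not overlap, and the difference was −1.81 (SE 0.44, adjusted p = 0.0154). Alpha class transferases are abundant in liver, and the liver marker list moved the same way: 5 of its 10 measured genes were lower in SHR and 0 higher, with a median difference of −1.94. The log2 mean level of that list was 9.49, 8.57, 9.59 and 8.47 in the SHR replicates 1 to 4, against 10.34, 9.39, 9.97 and 11.81 in the BN-Lx replicates 1 to 4. Albumin itself averaged 10.55 in SHR and 12.51 in BN-Lx. BN-Lx replicate 4 was the highest library for both the liver list and Gsta3, and SHR replicates 2 and 4 were the lowest for both. The part of liver RNA in the Gsta3 difference was not tested. The related Gsta2 (−1.41, SE 0.60, adjusted p = 0.144) and Gsta5 (−1.42, SE 0.52, adjusted p = 0.0909) had estimates of like size that did not pass, and Gsta1 had an estimate of −0.24 (SE 0.20) that did not pass either.

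The other transferases were not called. Estimates were −0.49 for Gsto2 (adjusted p = 0.176), −0.28 for Gstt1 (0.44), −0.26 for Gstp1, the pi class enzyme (0.236), −0.21 for Gstm5 (0.312), −0.15 for Gsto1 (0.255), −0.13 for Gstt3 (0.302) and −0.03 for Gstt2 (0.864), each with its adjusted p in parentheses. The assembled gene behind the Gsto2 value has 2 exons and followed the RefSeq Gsto2 gene across the 21 recombinant inbred strains with a Spearman rho of only 0.14. The microsomal enzymes, which act on lipids in membranes, had negative estimates without a call: −0.55 for Mgst1 (adjusted p = 0.0748), −0.38 for Mgst2 (adjusted p = 0.12) and −0.27 for Mgst3 (adjusted p = 0.129).

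Of the peroxiredoxins, those of the cytosol and of mitochondria that use thioredoxin were lower in SHR. Prdx2, abundant in the cytosol and in red cells, was at 13.41, 13.30, 13.18 and 13.19 in SHR, against 13.69, 13.57, 13.62 and 13.53 in BN-Lx, without overlap (−0.33, SE 0.07, adjusted p = 0.0078). Prdx3, the mitochondrial matrix enzyme, was at 13.05, 13.01, 12.91 and 12.86 in SHR, against 13.46, 13.22, 13.43 and 13.21 in BN-Lx, a difference of −0.37 (SE 0.08, adjusted p = 0.00785). No SHR library reached a BN-Lx library in either gene. Prdx5, found in mitochondria, peroxisomes and cytosol, was at 12.42, 12.21, 12.05 and 12.14 in SHR, against 12.52, 12.57, 12.42 and 12.53 in BN-Lx (−0.31, SE 0.08, adjusted p = 0.0247). At the printed precision the highest SHR and lowest BN-Lx libraries of Prdx5 were equal. Prdx1, an abundant cytosolic enzyme, was at 11.90, 11.90, 11.80 and 11.73 in SHR, against 12.25, 12.01, 12.29 and 12.02 in BN-Lx (−0.31, SE 0.08, adjusted p = 0.0262). The endoplasmic reticulum enzyme Prdx4 (−0.16, adjusted p = 0.504) and the 1-cysteine enzyme Prdx6, which uses glutathione (0.01, adjusted p = 0.949), were not called. Srxn1, sulfiredoxin, which repairs over-oxidized peroxiredoxins, had an estimate of 0.52 with an SE of 0.28 (adjusted p = 0.242). Its assembled gene has 2 exons and followed the RefSeq Srxn1 gene across the recombinant inbred strains with a Spearman rho of 0.64.

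Thioredoxins and their reductases gave calls in both directions. Txn2, the mitochondrial thioredoxin, was at 11.66, 11.48, 11.61 and 11.66 in SHR, against 11.91, 12.33, 11.86 and 12.34 in BN-Lx, a difference of −0.51 (SE 0.11, adjusted p = 0.00885). All BN-Lx values were above the SHR values, with replicates 2 and 4 above replicates 1 and 3. The cytosolic Txn1 was at 9.66, 9.56, 9.34 and 9.35 in SHR, against 9.91, 9.70, 9.89 and 9.73 in BN-Lx (−0.33, SE 0.10, adjusted p = 0.0417). Txnrd2, the mitochondrial reductase, was at 10.68, 10.54, 10.43 and 10.61 in SHR, against 10.83, 10.76, 10.86 and 10.79 in BN-Lx (−0.24, SE 0.08, adjusted p = 0.0488). Txnrd1, the cytosolic reductase, went the other way, at 10.93, 10.99, 10.89 and 10.95 in SHR, against 10.66, 10.75, 10.64 and 10.79 in BN-Lx (0.23, SE 0.07, adjusted p = 0.0462). The groups did not overlap in any of these genes, and Txnrd3, known from testis, had an estimate of 0.00 (adjusted p = 0.998).

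Nqo1, the NAD(P)H quinone reductase (chr19:35295633-35310528), was at 8.40, 8.48, 8.35 and 8.27 in SHR, against 9.23, 8.88, 9.10 and 9.02 in BN-Lx. All SHR libraries were below all BN-Lx libraries (−0.68, SE 0.10, adjusted p = 0.000739). Hmox1, the inducible heme oxygenase, was at 8.88, 8.34, 8.73 and 8.61 in SHR, against 8.21, 8.20, 7.91 and 8.19 in BN-Lx, a difference of 0.51 (SE 0.13, adjusted p = 0.0175). Thus these textbook targets of NRF2 were called in opposite directions. The constitutive heme oxygenase Hmox2 (−0.22, adjusted p = 0.115) and Nqo2 (0.20, adjusted p = 0.174) were not called. Sod1, the cytosolic superoxide dismutase, was at 12.59, 12.40, 12.34 and 12.32 in SHR, against 12.74, 12.60, 12.80 and 12.59 in BN-Lx (−0.27, SE 0.08, adjusted p = 0.0404), with SHR replicate 1 at the level of the lowest BN-Lx library. Sod2, the mitochondrial enzyme, was at 13.71, 13.48, 13.52 and 13.55 in SHR, against 13.62, 13.75, 13.64 and 13.70 in BN-Lx, with overlapping groups (−0.11, adjusted p = 0.299). The secreted Sod3 did not overlap between the groups but did not pass (−0.22, adjusted p = 0.0636).

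The calls differed in how far they rested on single libraries. In all, 9 members (Gpx4, Gsta3, Gsta4, Gstm2, Gstm7, Nqo1, Prdx2, Prdx3 and Txn2) were called in each of the 8 fits that left out 1 library. Gclm, Gpx1, Prdx5 and Txn1 were called in 2 of these fits, Txnrd2 in 1 and Txnrd1 in 0. Hmox1 had an adjusted p of 0.054 (limma) once BN-Lx replicate 3 was left out. With the spike-in level as a covariate all 19 differences kept their sign and 6 were called (Gpx4, Gsta4, Hmox1, Nqo1, Prdx1 and Prdx3), while 1849 of all 46063 genes were called in that fit. The estimates of Gsta3 (−0.73), Gstk1 (−0.20) and Txn2 (−0.19) were smaller by more than 1.5 times in it. The spike-in levels of SHR and BN-Lx did not overlap, so this fit cannot fully separate the strain from the spike-in level.

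Catalase (Cat), which breaks down hydrogen peroxide in peroxisomes and is transcribed from the minus strand of chr3:89842393-89874577, showed no difference as a gene but a change of transcripts. Its gene level was 12.58, 12.53, 12.41 and 12.49 in SHR, against 12.39, 12.60, 12.38 and 12.62 in BN-Lx (0.01, SE 0.08, adjusted p = 0.962). In total 6 transcripts were assembled for it, and they share 12 exons. They differ in the 891-base terminal exon at the 3′ end (chr3:89842393-89843283), which is unbroken in 1 transcript and interrupted in the others by gaps of 29, 35, 39, 43 or 50 bases at almost the same place, and in the outer end of that exon. The shortest of the other introns has 257 bases.

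The unbroken transcript was at 7.37, 8.69, 8.42 and 7.24 in SHR, against 12.35, 12.51, 12.33 and 12.51 in BN-Lx, a difference of −4.50 (SE 0.32, adjusted p = 0.000112). The transcript with the 35-base gap (chr3:89842764-89842798) was at 10.24, 9.92, 9.88 and 10.01 in SHR, against 4.86, 3.28, 3.78 and 3.63 in BN-Lx, a difference of 6.12 (SE 0.32, adjusted p = 2.1e-05). In BN-Lx the unbroken form was thus near the gene level with the 35-base form far below it, and in SHR the order of these forms was turned round. The transcript with the 50-base gap averaged 9.03 in SHR and 5.39 in BN-Lx (3.65, SE 0.45, adjusted p = 0.00235), and that with the 39-base gap 9.48 in SHR and 2.96 in BN-Lx (6.52, SE 0.87, adjusted p = 0.00339). The 43-base form (4.65, SE 1.20, adjusted p = 0.0603) and the 29-base form (0.31, SE 0.57, adjusted p = 0.799) did not pass. Reads in the shared exons cannot tell the 6 transcripts apart, so these levels rest on how reads over the terminal exon were assigned. What lies in the gap in either genome was not tested.

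The same exchange of the unbroken and 35-base forms ran through the recombinant inbred strains. In 8 strains (HXB1, HXB3, HXB5, HXB20, HXB24, HXB29, BXH5 and BXH6) the unbroken transcript was at 6.63 to 10.43 and the 35-base form at 9.47 to 10.98. In the other 13 strains (6 HXB and 7 BXH) the unbroken transcript was at 11.59 to 12.26 and the 35-base form at 3.28 to 6.38. BXH5 was the only strain between, with 10.43 and 9.47. The 43-base form did not follow these sets in the BXH strains. Among the 13 strains it was at 9.04 in BXH2, 10.08 in BXH8, 9.92 in BXH9, 9.21 in BXH11, 10.07 in BXH12 and 9.24 in BXH13. It was at 2.78 in BXH10 and at 1.26 (HXB31) to 6.35 (HXB7) in the HXB strains of that set. In BN-Lx it was at 2.39 to 7.46 and in SHR at 8.22 to 10.66. Both sets held strains of batch 2 and of batch 3, and 3 of the 8 strains were in batch 2. The Cat gene level in the RefSeq table stayed within 12.36 to 12.79 over all 21 strains. These sets were read off the values and were neither averaged nor tested.

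**Figure D2:**
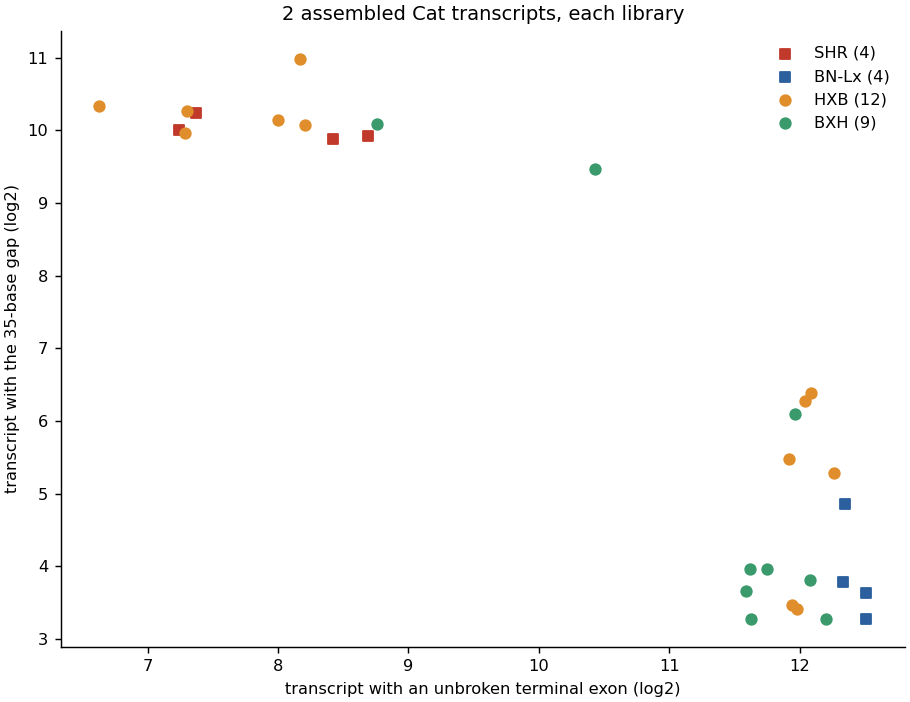
Log2 level of the Cat transcript with an unbroken terminal exon (horizontal axis) against that of the transcript with a 35-base gap (vertical axis), 1 point per library, squares for SHR and BN-Lx and circles for HXB and BXH strains. The 4 SHR libraries lie with 8 strains at upper left and the 4 BN-Lx libraries with 13 strains at lower right.

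Of 118 assembled transcripts of 45 members, 13 were called, 10 lower and 3 higher in SHR, beside 5.53% of all 91969 transcripts (2.81% lower, 2.72% higher). They belonged to 10 members, of which Cat alone had calls in both directions. Without the intensity trend of limma 5 transcripts of members were called, 2 lower and 3 higher, which include the 4 Cat transcripts but none of the 4 transcripts of other members given here. In Gpx4, Prdx2 and Gstm2 the called transcript had the direction of the called gene. One of 2 Gpx4 transcripts was at 12.64, 12.54, 12.21 and 12.42 in SHR, against 13.48, 13.04, 13.43 and 13.12 in BN-Lx (−0.81, adjusted p = 0.0112). One of 2 Prdx2 transcripts was at 13.34, 13.17, 12.97 and 13.05 in SHR, against 13.70, 13.50, 13.59 and 13.48 in BN-Lx (−0.44, adjusted p = 0.0425). The second transcript was not called in either gene, with −0.46 (SE 0.57) for Gpx4 and 0.14 (SE 0.29) for Prdx2, and the difference between the transcripts was not tested. One of 9 transcripts of the assembled gene named Gstm2 was at 11.49, 11.54, 11.51 and 11.47 in SHR, against 12.38, 11.79, 12.06 and 12.04 in BN-Lx (−0.56, adjusted p = 0.0371). One of 10 transcripts of the merged gene that holds Gstt3 was at 10.58, 10.40, 10.35 and 10.47 in SHR, against 11.01, 10.77, 11.04 and 11.02 in BN-Lx (−0.51, adjusted p = 0.0314). That merged gene itself was not called (−0.13, adjusted p = 0.302), and another of its transcripts had an estimate of 0.85 without overlap of the groups and did not pass (adjusted p = 0.0915).

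Between the families, 29 of 50 members were called, 27 lower in HXB and 2 higher (Gsta6 and Gpx8), with a median difference of −0.20. In the same fit 36.3% of all RefSeq genes were called, 17.8% lower and 18.5% higher in HXB, and the median over all genes was −0.01. The lower members included 3 of 5 peroxidases, 10 of 18 transferases and 5 of the 7 peroxiredoxin and sulfiredoxin genes. The ranges of HXB and BXH overlapped in each member. In the families, too, the spike-in level differed: within batch 3 it was 6.63 to 7.01 in HXB, against 7.26 to 7.93 in BXH, without overlap, and within batch 2 it was 6.74 to 6.95 in HXB, against 6.78 to 7.49 in BXH. With that level as a covariate 0 members and 0 of all 19100 genes were called, while 14 members had an unadjusted p under 0.05 (limma), and the 27 differences stayed negative with a median of −0.18, against −0.24 without it. Of the 29 called estimates 16 were smaller by more than 1.5 times with the covariate, among them Sod3 (−0.11), Gpx7 (−0.04), Gpx1 (−0.16), Gstm2 (−0.19), Gstm4 (−0.10), Gstp1 (−0.18) and Gpx8 (0.05). Since the spike-in level differed with the family, that fit cannot fully separate the family from the spike-in level. In batch 2 alone, with 3 strains per family, 26 of the 27 were negative (median −0.18), 0 members passed and 5 had an unadjusted p under 0.05. In batch 3 alone all 27 were negative (median −0.29).

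**Figure D3:**
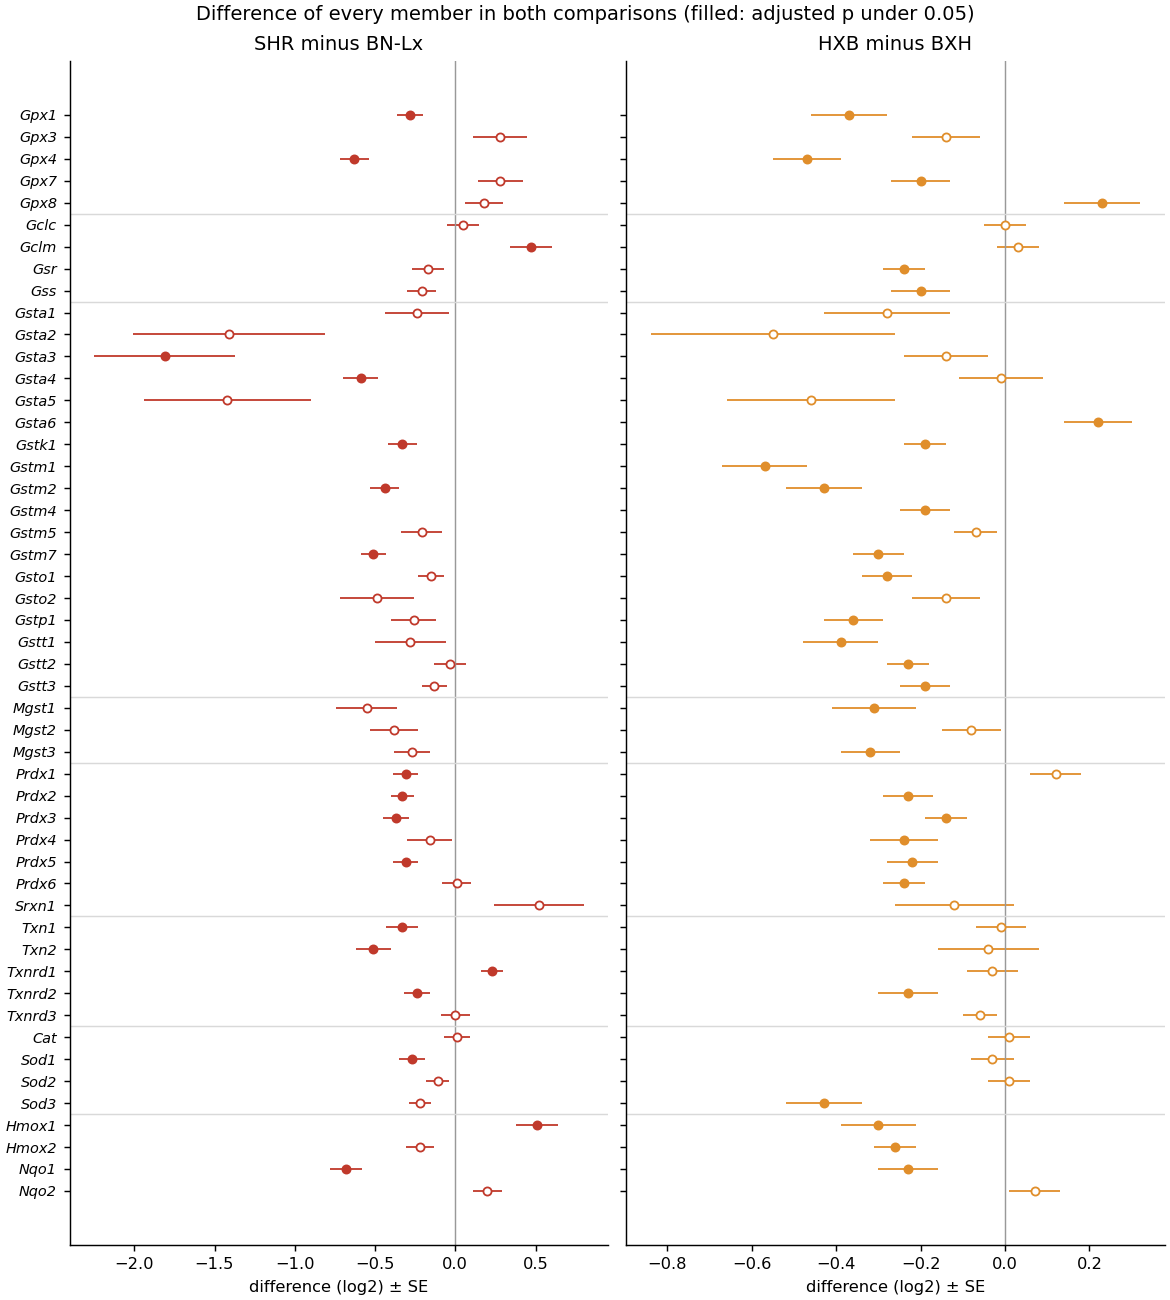
Difference of every member in log2 level with its SE, SHR minus BN-Lx on the left and HXB minus BXH on the right, with members grouped by class and filled points at an adjusted p under 0.05. Most filled points lie left of zero in both panels, and the exceptions are Gclm, Txnrd1 and Hmox1 on the left and Gpx8 and Gsta6 on the right.

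Gpx4 again had the smallest adjusted p. Its levels were 12.81 to 13.46 with a median of 13.18 in HXB strains, against 13.25 to 13.97 with a median of 13.65 in BXH strains (−0.47, SE 0.08, adjusted p = 0.000397). The BXH strains at 13.26 (BXH5) and 13.25 (BXH6) were within the HXB range, and they were also those with the lowest spike-in levels of their family, 6.78 and 6.84. Gpx1 was at 13.74 to 14.52 (median 13.99) in HXB, against 14.00 to 14.67 (median 14.47) in BXH (−0.37, adjusted p = 0.00319). Gpx7 was at 8.82 to 9.41 (median 9.21) in HXB, against 9.14 to 9.50 (median 9.42) in BXH (−0.20, adjusted p = 0.0241). Gpx8 was the exception in its class, at 7.83 to 8.44 (median 8.14) in HXB, against 7.50 to 8.25 (median 7.98) in BXH (0.23, SE 0.09, adjusted p = 0.0401). Gpx3 was not called (−0.14, adjusted p = 0.205).

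**Figure D4:**
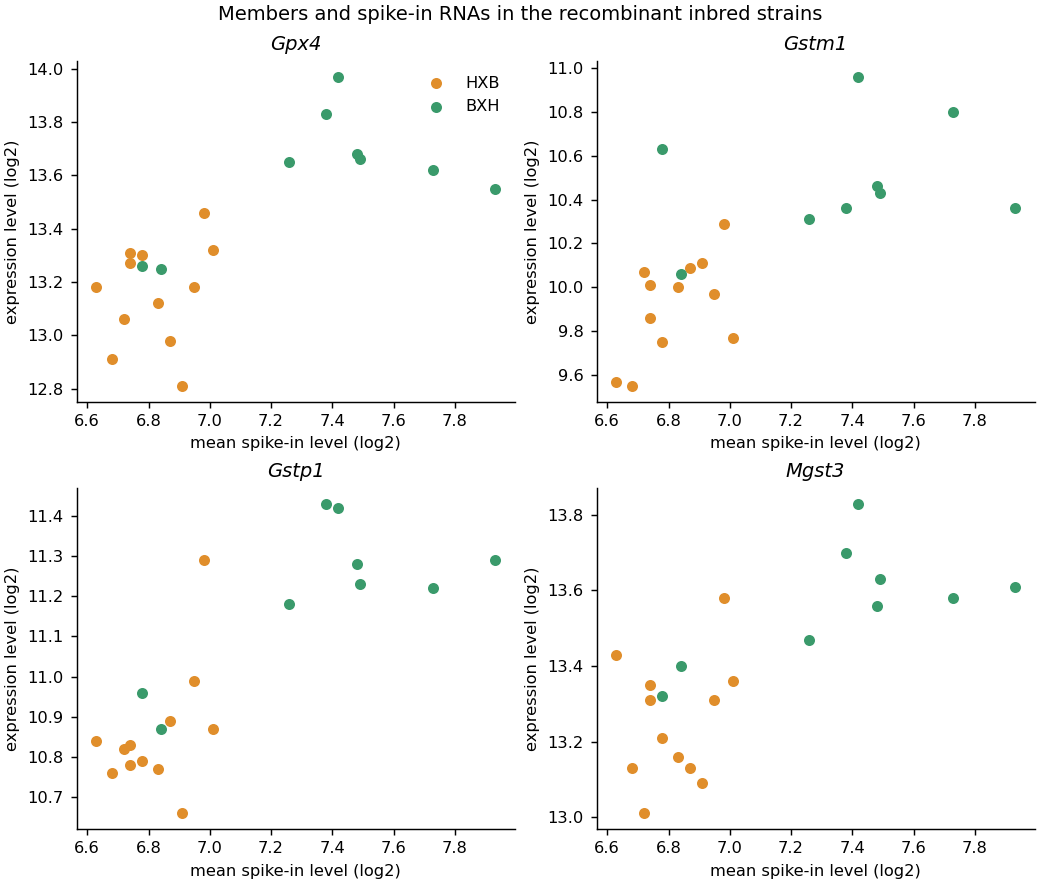
Log2 level of Gpx4, Gstm1, Gstp1 and Mgst3 (vertical axes) against the mean log2 level of the spike-in RNAs (horizontal axes) in the 12 HXB and 9 BXH strains, 1 point per strain. BXH5 and BXH6, at 6.78 and 6.84 on the horizontal axis, lie among the HXB strains, and the other BXH strains lie at 7.26 or above.

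Of the 5 mu class transferases, 4 were lower in HXB. Gstm1 was at 9.55 to 10.29 (median 9.98) in HXB, against 10.06 to 10.96 (median 10.43) in BXH (−0.57, SE 0.10, adjusted p = 0.000493). Gstm2 was at 12.29 to 12.80 (median 12.46) in HXB, against 12.50 to 13.39 (median 12.88) in BXH (−0.43, SE 0.09, adjusted p = 0.00107). Gstm7 was at 9.53 to 10.03 (median 9.68) in HXB, against 9.83 to 10.18 (median 10.06) in BXH (−0.30, SE 0.06, adjusted p = 0.000734). A smaller difference was called for Gstm4, at 9.03 to 9.39 (median 9.16) in HXB, against 9.07 to 9.58 (median 9.33) in BXH (−0.19, adjusted p = 0.0164), and its estimate was 0.04 in batch 2 alone. Gstm5 was not called (−0.07, adjusted p = 0.313).

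The theta class behaved likewise, and so did single members of other classes. Gstt1 was at 5.82 to 6.43 (median 6.18) in HXB, against 6.18 to 6.85 (median 6.55) in BXH (−0.39, adjusted p = 0.00145). Gstt2 was at 8.57 to 8.94 (median 8.73) in HXB, against 8.82 to 9.09 (median 8.97) in BXH (−0.23, adjusted p = 0.00139). Gstt3 was at 7.45 to 7.74 (median 7.64) in HXB, against 7.62 to 7.95 (median 7.84) in BXH (−0.19, adjusted p = 0.0115). In all 3 the highest HXB strain lay above the lowest BXH strain, but each HXB median was below its BXH median. Gstp1, the pi class enzyme, was at 10.66 to 11.29 (median 10.82) in HXB, against 10.87 to 11.43 (median 11.23) in BXH (−0.36, SE 0.07, adjusted p = 0.000553). Gsto1, an omega class enzyme with dehydroascorbate reductase activity, was at 10.76 to 11.19 (median 10.95) in HXB, against 11.07 to 11.60 (median 11.17) in BXH (−0.28, adjusted p = 0.00144). Gstk1 was at 10.04 to 10.41 (median 10.22) in HXB, against 10.29 to 10.61 (median 10.40) in BXH (−0.19, adjusted p = 0.00661). One transferase was higher in HXB: Gsta6, at 7.35 to 7.81 (median 7.61) in HXB, against 7.07 to 7.66 (median 7.38) in BXH (0.22, SE 0.08, adjusted p = 0.0326). Its call and that of Gpx8 were absent when the strain BXH12 was left out, and 25 members were then called, all lower.

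Of the microsomal transferases, 2 were lower in HXB. Mgst3, which is abundant in heart, was at 13.01 to 13.58 (median 13.26) in HXB, against 13.32 to 13.83 (median 13.58) in BXH (−0.32, SE 0.07, adjusted p = 0.00119). Mgst1 was at 8.55 to 9.26 (median 8.77) in HXB, against 8.82 to 9.81 (median 9.01) in BXH (−0.31, adjusted p = 0.0163). In glutathione metabolism proper, Gsr was at 9.78 to 10.15 (median 9.91) in HXB, against 9.97 to 10.27 (median 10.20) in BXH (−0.24, SE 0.05, adjusted p = 0.00121). Gss was at 8.55 to 9.08 (median 8.81) in HXB, against 8.85 to 9.15 (median 9.0) in BXH (−0.20, adjusted p = 0.0252). The ligase subunits had estimates near zero, Gclc 0.00 (SE 0.05, adjusted p = 0.978) with 9.03 to 9.40 (median 9.14) in HXB, against 8.99 to 9.28 (median 9.16) in BXH, and Gclm 0.03 (SE 0.05, adjusted p = 0.675).

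Of the 6 peroxiredoxins, 5 were lower in HXB. Prdx2 was at 13.40 to 13.91 (median 13.54) in HXB, against 13.62 to 14.15 (median 13.77) in BXH (−0.23, adjusted p = 0.0064). Prdx3 was at 12.97 to 13.36 (median 13.21) in HXB, against 13.21 to 13.59 (median 13.33) in BXH (−0.14, adjusted p = 0.0332). Prdx4 was at 9.11 to 9.78 (median 9.37) in HXB, against 9.30 to 9.72 (median 9.68) in BXH (−0.24, adjusted p = 0.0183). Among the called peroxiredoxins Prdx4 was the one whose highest strain was an HXB strain. Prdx5 was at 12.30 to 12.80 (median 12.58) in HXB, against 12.60 to 13.01 (median 12.79) in BXH (−0.22, adjusted p = 0.00633). Prdx6 was at 11.99 to 12.37 (median 12.17) in HXB, against 12.17 to 12.66 (median 12.38) in BXH (−0.24, adjusted p = 0.00188). Prdx1 had an estimate of 0.12 (SE 0.06, adjusted p = 0.106). In the thioredoxin system only Txnrd2 was called, at 10.58 to 11.22 (median 10.86) in HXB, against 10.82 to 11.29 (median 11.07) in BXH (−0.23, adjusted p = 0.0121). Txn1 (−0.01), Txn2 (−0.04), Txnrd1 (−0.03) and Txnrd3 (−0.06) were not called, and Txnrd1 was at 10.56 to 10.92 (median 10.80) in HXB, against 10.53 to 11.05 (median 10.81) in BXH.

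Both heme oxygenases were lower in HXB. Hmox2 was at 10.52 to 10.79 (median 10.64) in HXB, against 10.77 to 11.08 (median 10.83) in BXH (−0.26, SE 0.05, adjusted p = 0.000541). Hmox1 was at 8.42 to 8.80 (median 8.61) in HXB, against 8.49 to 9.24 (median 9.02) in BXH (−0.30, adjusted p = 0.0102). Nqo1 was at 8.73 to 9.10 (median 8.83) in HXB, against 8.79 to 9.53 (median 9.07) in BXH (−0.23, adjusted p = 0.0124), and Nqo2 was not called (0.07, adjusted p = 0.384). The secreted superoxide dismutase Sod3 was at 9.95 to 10.68 (median 10.41) in HXB, against 10.50 to 11.12 (median 10.85) in BXH (−0.43, SE 0.09, adjusted p = 0.00127). The intracellular Sod1 (−0.03, adjusted p = 0.686) and Sod2 (0.01, adjusted p = 0.923) were not called, Sod2 being at 13.26 to 13.63 (median 13.49) in HXB, against 13.37 to 13.72 (median 13.43) in BXH. Cat was at 12.43 to 12.79 (median 12.56) in HXB, against 12.36 to 12.79 (median 12.58) in BXH (0.01, adjusted p = 0.938).

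The comparisons of progenitors and of families share no library. In 10 members (Gpx1, Gpx4, Gstk1, Gstm2, Gstm7, Nqo1, Prdx2, Prdx3, Prdx5 and Txnrd2) the level was lower in SHR and also lower in HXB. They were 10 of the 16 lower in SHR among the 47 members in both tables. Of the 12230 genes that could be matched between the tables, 289 (2.36%) were lower in both, out of 1143 lower in SHR and 2415 lower in HXB. Hmox1 was called in opposite directions, higher in SHR and lower in HXB. A further 6 members (Gsta3, Gsta4, Prdx1, Sod1, Txn1 and Txn2) were lower in SHR without a call in HXB, 14 were lower in HXB without a call in SHR, and 13 (Cat, Gclc, Gpx3, Gsta1, Gsta2, Gsta5, Gstm5, Gsto2, Mgst2, Nqo2, Sod2, Srxn1 and Txnrd3) had no call in either. In both comparisons the spike-in level was lower in the group with the lower members.

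Members varied in unequal measure from strain to strain. After centring within batch, the SD across the 21 strains had a median of 0.192 over the members and 0.179 over all genes, and 30 of the 50 members were above the median SD of genes of like level. The 2 later libraries of the same SHR animal differed by a median of 0.065 in the members and 0.092 in all genes, which gives the scale of technical error. The largest SDs were those of alpha class transferases. Gsta2 (SD 0.776) was at 4.34 to 5.69 (median 5.31) in HXB, against 4.48 to 7.43 (median 5.63) in BXH, with BXH5 at 7.43 and BXH8 at 6.83. Gsta5 (SD 0.551) was at 3.74 to 4.65 (median 4.35) in HXB, against 3.84 to 5.96 (median 4.82) in BXH, and the same strains were its highest, at 5.96 and 5.76. Gsta1 (SD 0.387) was at 7.47 to 8.18 (median 7.85) in HXB, against 7.35 to 8.74 (median 8.17) in BXH. None of these 3 was called between the families, Gsta2 with −0.55 (SE 0.29, adjusted p = 0.149), Gsta5 with −0.46 (SE 0.20, adjusted p = 0.0781) and Gsta1 with −0.28 (SE 0.15, adjusted p = 0.144).

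Next in spread were Gstm1 (SD 0.382), Srxn1 (SD 0.353) and Sod3 (SD 0.309). Srxn1 was at 8.47 to 9.17 (median 8.94) in HXB, against 8.20 to 9.79 (median 8.96) in BXH, both extremes lying in BXH strains, BXH2 and BXH12. The smallest SDs were those of Txnrd3 (0.088), Gclc (0.098) and Sod1 (0.099). BXH12 was the highest strain in 20 members, 40% of the 50, while it was the highest in 11.9% of all genes, and BXH8 was the highest in 11 members, 22%, against 8.16% of all genes. HXB13 was the lowest strain in 10 of the 50 members, against 8.08% of all genes. More than 1 mode was found across the strains for 8 members (Gsr, Gsta2, Gsta3, Gsta5, Gstm5, Gstp1, Hmox1 and Mgst1), 8 of 50 beside 15.6% of all genes, a share near that background. Of these, 4 (Gsr, Gsta3, Gsta5 and Gstp1) also had more than 1 mode both without centring and in batch 3 alone. Gsta3 was at 1.98 to 2.71 over the strains, low on the scale of the table.

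Many of these genes lie in clusters, and recombinant inbred strains tend to inherit near neighbours together. The part of shared inheritance in the correlations of such pairs was not tested. In all 14 pairs of members start within 1 Mb of each other, and 5 of them passed in the Spearman correlation across 21 strains (permutation test, two-sided, adjusted over the 14 pairs). Gsta2 and Gsta5, 78974 bases apart on chromosome 8, moved together with rho 0.87 (p = 2e-05, adjusted p = 0.00014) and r 0.93, and r was 0.86 without the 2 strains farthest from the median of the first gene. In batch 3 alone rho was 0.86, and within batch and family it was 0.93. Gsta2 and Gsta5 both also followed the liver markers described below (rho 0.89 and 0.77), and reads could be divided among alpha class copies. The part of either in this correlation was not tested. Gstm2 and Gstm7 had rho 0.86 (p = 1e-05, the smallest these permutations can give, adjusted p = 0.00014) and r 0.76, with 0.73 without those strains and rho 0.86 in batch 3. Within family, however, that rho was 0.38 (adjusted p = 0.157).

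On chromosome 20, Gstt1 and Gstt2 had rho 0.78 (adjusted p = 0.00028) and r 0.76, with rho 0.95 in batch 3 and 0.41 within family. Gstt1 and Gstt3 had rho 0.70 (adjusted p = 0.00199), and Gstt2 and Gstt3 had rho 0.57 (adjusted p = 0.0231), with rho in batch 3 of 0.72 and 0.66. Within batch and family only Gsta2 with Gsta5 and Gsta2 with Gsta4 (rho 0.63, adjusted p = 0.0178) passed. Gclc, on the same stretch of chromosome 8 as the Gsta genes, did not pass with any of the 3 neighbours tested (rho 0.06 to 0.36). Gsta6, Gstm1 and Gstm4 have no assembled position, so none of their pairs could be counted as neighbours. Among the 47 members with a position, the median rho was 0.40 over the 14 neighbouring pairs and 0.26 over the other 1067 pairs, which share all their libraries.

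Markers of red cells and of liver were set beside the members across the strains, since both sources are rich in some of them. Against the mean of 14 liver markers, 4 of 50 members passed (permutation test, two-sided, adjusted over 100 relations), all with positive rho. Their smallest rho was 0.55, and 1.67% of all other RefSeq genes had a rho that high. Gsta2 had rho 0.89 (p = 1e-05, adjusted p = 0.000333) and r 0.97, and r was 0.95 without the 2 strains farthest from the median. Gsta5 had rho 0.77 (adjusted p = 0.002) and r 0.90, and Gsta3 had rho 0.75 (adjusted p = 0.00317) and r 0.81. Gsta3 was at only 1.98 to 2.71 over the strains, so its correlation rests on small differences at a low level. Gsta2, Gsta5 and Gsta3 also passed in batch 3 alone and within batch and family, with rho of 0.85 to 0.96 in the last. Gsto2 had rho 0.55 (adjusted p = 0.0485) and r 0.60, which was 0.40 without those strains and did not pass within family. The log2 mean level of the liver list was 8.43 to 10.13 in HXB and 8.83 to 11.23 in BXH, and 2 of its 14 genes were lower in HXB and 0 higher. BXH5, the highest strain for Gsta2 and Gsta5, was also the highest for the liver list.

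Against the mean of 11 erythroid markers 18 members passed, all with positive rho, and the median rho over the 50 members was 0.41, while 11.9% of all other RefSeq genes had a rho as high as the smallest of the 18 (0.55). Gss had rho 0.87 (p = 1e-05, adjusted p = 0.000333) and r 0.83, with 0.89 without the 2 strains farthest from the median. Gpx7 had rho 0.86 and r 0.68, Gstp1 rho 0.76 and r 0.67, Prdx2 rho 0.72 and r 0.60, and Gpx4 rho 0.72 and r 0.59. Gpx1 also passed (rho 0.70), whereas Cat (rho 0.09), Sod1 (rho 0.05) and Prdx1 (rho −0.19) did not. The lowest rho were −0.53 for Nqo2 and −0.51 for Gpx8, and neither passed. In batch 3 alone 22 members passed, beside 12.1% of all other genes with a rho of 0.67 or more, the smallest of the 22. Within batch and family 7 passed, beside 1.85% of all other genes with a rho of 0.61 or more, the smallest of the 7. Gstp1 (rho 0.54, adjusted p = 0.0833) and Gpx4 (rho 0.56, adjusted p = 0.0687) did not pass there. The log2 mean level of these markers was 14.34 to 15.82 in HXB and 14.73 to 15.72 in BXH, and 0 of 11 were called between the families (limma). Between the progenitors it was 14.67 to 16.00 in SHR and 15.11 to 15.79 in BN-Lx, and 1 of 7 was called, higher in SHR. The part of red cells in the levels of these members was not tested.

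**Figure D5:**
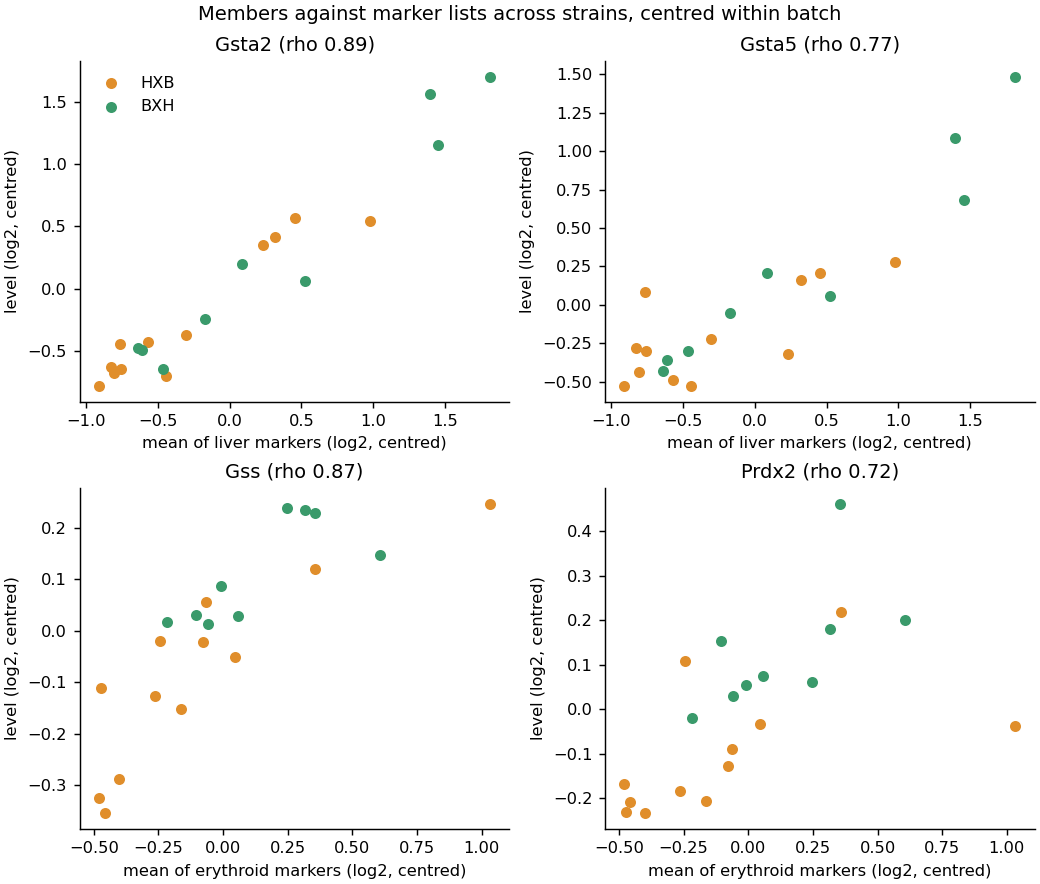
Level of Gsta2 and Gsta5 against the mean of the liver markers (upper panels), and of Gss and Prdx2 against the mean of the erythroid markers (lower panels), all in log2 and centred within batch, 1 point for each of the 12 HXB and 9 BXH strains. Points rise from lower left to upper right, with Spearman rho of 0.89, 0.77, 0.87 and 0.72 in the 4 panels.

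Genes that act around the members were described from lists of pathways. For these lists and the cell markers below, the shares over all genes stand beside the counts. Of the assembled genes that carry a name alone, 9.42% were lower and 11.1% higher in SHR. Of all RefSeq genes, 17.8% were lower and 18.5% higher in HXB, and 0 were called with the spike-in level as a covariate. The counts are descriptions, and no list was tested as a set. Of 7 measured regulators of the antioxidant response, 2 were lower in SHR and 0 higher: Nfe2l2, which encodes NRF2 (10.80 ± 0.05 in SHR and 11.08 ± 0.07 in BN-Lx, SD, n = 4 each, −0.28, adjusted p = 0.019, limma), and Maff, a small partner of it (7.62 ± 0.08 in SHR and 8.17 ± 0.22 in BN-Lx, SD, n = 4 each, −0.55, adjusted p = 0.0103, limma). Between the families Nfe2l2 was higher in HXB (0.15) and so was the repressor Bach1 (0.12), while Keap1, which marks NRF2 for degradation, was lower (−0.21), and so was Maff (−0.28), 2 lower and 2 higher of 9. Of 13 genes of NADPH supply, 3 were lower in SHR and 1 was higher. Lower were the mitochondrial malic enzyme Me3 (−0.57), the mitochondrial isocitrate dehydrogenase Idh2 (−0.28) and the folate enzyme Aldh1l1 (−1.16), and higher was the mitochondrial transhydrogenase Nnt (0.36). In HXB 7 of 16 were lower and 2 higher, Me3 (−0.25) and Aldh1l1 (−0.57) again among the lower.

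Of 12 genes of glutathione turnover and cysteine supply, 1 was higher in SHR, the dipeptidase Dpep1 (0.87), and 0 lower, while in HXB 7 of 18 were lower and 1 higher, Dpep1 among the lower (−0.40). Slc25a39, the carrier that brings glutathione into mitochondria, was lower in HXB (−0.39). Of 8 glutaredoxins and thioredoxin relatives, 2 were lower in SHR, the iron-sulfur glutaredoxins Glrx3 (−0.25) and Glrx5 (−0.36). In the families 1 of 12 was lower in HXB and 2 higher. Selenoproteins and their synthesis had 2 lower and 2 higher of 18 in SHR: the selenium carrier Selenop (−0.41) and Selenow (−0.44) were lower, and the methionine sulfoxide reductase Msrb1 (0.53) and the deiodinase Dio2 (0.85) were higher. In HXB 7 of 22 were lower and 4 higher.

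The reductases and dehydrogenases that clear aldehydes and quinones had 3 lower and 3 higher of 15 in SHR. Cbr3, a carbonyl reductase, averaged 9.81 ± 0.04 in SHR and 11.24 ± 0.23 in BN-Lx (SD, n = 4 each), a difference of −1.43 (SE 0.11, adjusted p = 2e-06, limma), more than any called member but Gsta3 differed. In HXB 9 of 21 were lower and 2 higher. Exporters of glutathione conjugates had 0 of 6 called in SHR (limma) and 1 lower and 1 higher of 6 in HXB. Of 8 genes of heme and iron handling, 1 was higher in SHR, the iron exporter Slc40a1 (0.41). In HXB 4 of 10 were lower and 2 higher, with ferritin light chain Ftl1 at −0.45 and the transferrin receptor Tfrc at 0.59. Among 12 oxidant producing enzymes, 3 were higher in SHR, the NADPH oxidase Nox4 (0.64), the oxidase subunit Ncf1 (0.61) and the aldehyde oxidase Aox1 (1.02), and 2 were lower, xanthine dehydrogenase Xdh (−0.38) and monoamine oxidase Maoa (−0.77). In HXB 4 of 12 were lower and 0 higher, Ncf1 (−0.35) among them.

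Markers of other cells were counted in the same way, beside the same shares over all genes. Mesothelial markers were lower in SHR in 5 of 7 and higher in 0, with a median of −0.84 and a log2 mean level of 7.29 to 7.55 in SHR, against 7.67 to 7.92 in BN-Lx. In HXB 6 of 8 were lower (median −0.48). Endothelial markers had 6 higher and 1 lower of 11 in SHR, macrophage markers 4 lower and 1 higher of 9, and cardiomyocyte markers 3 lower and 0 higher of 7 (median −0.20). Between the families cardiomyocyte markers were lower in HXB in 6 of 9 (median −0.24) and macrophage markers in 5 of 10. Fibroblast markers had 1 lower and 1 higher of 9 in SHR and 0 lower and 1 higher of 9 in HXB, pericyte and smooth muscle markers 3 higher of 7 in SHR and 2 higher of 8 in HXB, and adipocyte markers 0 called of 3 in either comparison (limma). The part of any of these cells in the differences of the members was not tested.

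Promoter sequences were read for the members because several are known targets of NRF2, which binds the antioxidant response element with its small MAF partners. The core TGACNNNGC was searched on both strands from 250 bases before to 50 bases after each annotated start in RefSeq promoters of the build GRCr8, which differs from the build rn7 of the expression tables. Of the 50 members, 42 had a promoter there, and 13 of them (31%) held the core, while 13.1% of 27457 genes with a promoter did. Among the members called between SHR and BN-Lx it was found for the higher Gclm and Txnrd1 and for the lower Gsta3, Gstm7, Prdx1 and Prdx5. Of the 8 fits that left out 1 library, Gclm was called in 2, Txnrd1 in 0, Prdx1 in 4 and Gstm7 in 8. The Gclm call came from an assembled gene of 2 exons, with a Spearman rho of 0.30 to the RefSeq gene across strains. It was lost with the other assembled gene of that symbol. The following stretches of 100 bases show the core (in capitals) in a pair of members higher in SHR and a pair lower in SHR, each written 5′ to 3′ on the strand of its gene. A core on the opposite strand reads GCNNNGTCA here.
Gclm (chr2:213031918-213032017, plus strand): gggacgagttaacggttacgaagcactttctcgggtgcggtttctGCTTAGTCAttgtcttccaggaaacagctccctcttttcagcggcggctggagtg
Txnrd1 (chr7:22755928-22756027, minus strand): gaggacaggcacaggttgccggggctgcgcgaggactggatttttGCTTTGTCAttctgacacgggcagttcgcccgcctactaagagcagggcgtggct
Prdx1 (chr5:135383726-135383825, plus strand): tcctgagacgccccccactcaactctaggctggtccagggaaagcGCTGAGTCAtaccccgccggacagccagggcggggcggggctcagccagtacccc
Gstm7 (chr2:198260279-198260378, minus strand): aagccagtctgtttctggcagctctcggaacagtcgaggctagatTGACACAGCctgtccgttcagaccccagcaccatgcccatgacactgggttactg
The core begins 172 bases before the start in Gclm, 78 in Txnrd1, 135 in Prdx1 and 14 in Gstm7. It lies on the strand of the gene in Gstm7 and on the opposite strand in the other 3. Nqo1 and Gpx4, called lower in SHR, had no match within this window, and Hmox1 had no promoter in the table used. A match of these letters is a description of the sequence and says nothing of binding in these hearts.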

How the data were processed

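Members and gene lists were chosen with earlier results of these data known. The deposited values were log2 levels per gene or transcript made by the authors, with a transformation and scaling that the sources used here do not give. Without stating roles, the notes of the submitters list RSEM 1.3.1, StringTie 1.3.5 and HISAT2 2.1.0 as tools, beside cutadapt 1.9.1 and Bowtie2 2.3.4.3. They also list DESeq2, without a version, and rn7 as the build. Libraries were made with a stranded kit, but whether strand was used in counting is not stated.

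The tables of assembled genes (46063) and transcripts (91969) were used for SHR and BN-Lx and the RefSeq table (19100 genes) for the families. For each symbol the assembled gene carrying it alone with the highest mean was taken, otherwise the one carrying it with other names. Comparisons used limma 3.58.1 in R 4.3.3 (intensity trend, two-sided, Benjamini-Hochberg, threshold 0.05), without covariates for SHR against BN-Lx and with batch as a covariate for HXB against BXH. The series describes its replicates as biological ones. The 2 later libraries of SHR replicate 4 entered no comparison, since they repeat an animal that already had a library there. Their columns also could not be assigned to a batch. Modes were counted with mclust 6.1.1 (up to 3 components, by BIC) and correlations tested with 100000 permutations (scipy 1.17.1). Spike-in level was the mean log2 value over the spike-in RNAs, and marker levels were log2 of the mean of linear values.

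Values per library in SHR and BN-Lx, and the lowest, median and highest strain in HXB and BXH, were given for members called in that comparison, the 6 with the largest SD across strains, the 3 with the highest values in the RefSeq table (Gpx1, Prdx2 and Sod2, a choice by deposited level, which is not per length), and Gpx1, Gpx4, Sod2, Cat, Nqo1, Txnrd1 and Gclc. Transcripts were named for members with several of which at least 1 was called. Prdx5 was placed by unrounded values when overlap was counted.

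The tests were checked on simulated data, with known changes put into genes or transcripts drawn at random from all. For genes between SHR and BN-Lx, 16% of changes of 0.5 log2 and 38% of changes of 1 log2 were recovered. For transcripts these shares were 0% and 4%. For genes between HXB and BXH, 98% of changes of 0.5 log2 were recovered. A gene or transcript not called between SHR and BN-Lx may thus still differ by such an amount. Alternatives covered the intensity trend, quantile normalization, minimum means of 4 and 6, batches, tables, the replicate block and single libraries. Added after seeing the data were the spike-in covariate, an older Ensembl table, leaving out BXH12 and centring within family.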

Additional observations from a re-analysis of the deposited data

Results flagged for a closer look

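Among 144 groups of 4 to 10 libraries (each member in SHR, BN-Lx and BXH), 5 held a library far from the others, and chance alone gives about 1 in 20. Gpx3 was at 12.47 in SHR replicate 1, against 12.16 to 12.21 in the other SHR libraries. Hmox1 was at 7.91 in BN-Lx replicate 3, against 8.19 to 8.21 in the other BN-Lx libraries, and the call of Hmox1 between SHR and BN-Lx was lost without it. Mgst2 was at 7.07 in BN-Lx replicate 4, against 6.63 to 6.69. Prdx1 was at 11.60 in the strain BXH9, against 11.89 to 12.13 in the other BXH strains. Sod2 was at 13.72 in the strain BXH8, against 13.37 to 13.55. The 5 values came from 5 different libraries, and their causes were not tested.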

How the results depend on the processing

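Between SHR and BN-Lx, where 19 members were called, 5 were called in limma without the intensity trend (5 lower and 0 higher, 20 at an unadjusted p under 0.05), 7 with all groups in 1 fit with a batch term, 6 with the spike-in level as a covariate, 16 with the replicate number as a block, and 10 to 18 without 1 library. Of all 46063 genes, 6603 were called at first, against 4911, 3916 and 1849 in the first 3 of these alternatives. The lowest count of members without 1 library came without SHR replicate 4, and 11 were called without BN-Lx replicate 1, BN-Lx replicate 3, SHR replicate 2 or SHR replicate 3. For the transcripts of members, where 13 were called, 5 were called without the trend and 7 to 11 without 1 library (7 without SHR replicate 3 or 4, 8 without SHR replicate 2 or BN-Lx replicates 3 or 4). Between HXB and BXH, where 29 members were called, 0 were called with batch 2 strains alone, where fewer strains were tested, and 0 with the spike-in level as a covariate. Over the other alternatives of that comparison the count was 25 to 30. The spike-in level differed with the group in both comparisons, so the fits with it cannot fully separate the group from that level. Among the estimates between HXB and BXH that were called with or without the alternative, 2 changed sign: Gclc between HXB and BXH was −0.17 (adjusted p = 0.047, limma) in the table of assembled genes, whose median over all genes was 0.11, and Gstm4 was 0.04 with batch 2 strains alone. Estimates near 0 that passed under neither setting also changed sign, such as Sod1 (−0.03, and 0.11 with batch 2 strains alone). Centred within batch and family, 2 neighbouring pairs passed in place of 5, and 11 relations with markers in place of 22. The other causes were not tested.

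The replicate numbers of SHR and BN-Lx share no stated animal, litter or day. Deviations of same-numbered libraries correlated with 0.19, −0.38, −0.17 and 0.15 over 10045 genes, and 1 of 4 SHR libraries had its own number as best partner. With the block 5437 of all genes were called in place of 6603, and 4 transcripts of members in place of 13.

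The older assembled-gene table was not run, as no BN-Lx column was found in it. With unknown depth, low levels such as those of Gsta3 carry an error that cannot be separated from the spread of libraries. The p-values measure the spread between these libraries only.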
